A study of Homo sapiens with 6 samples.

Results

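Pyruvate, the product of glycolysis, can be reduced to lactate in the cytosol or carried into mitochondria, and the 10 genes described here encode the proteins of that branch point. They were listed by name: LDHA, LDHB, MPC1, MPC2, PDHA1, PDHB, PDK1, PDK2, PDK3 and PC. All 10 are among the 14200 genes of the deposited expression table. The measurements are RNA sequencing of Huh7, an established line of human hepatocellular carcinoma cells, in 2 groups of 3 libraries. The SETD5 knockdown group was transfected with siRNA against SETD5, a gene for a SET-domain protein of chromatin. The protocol names transfection of siRNA with the RNAiMAX reagent for both groups, but the labels do not say what the control cells received. They also do not say whether replicates were separate cultures, and the p-values here therefore reflect library-to-library spread that could be technical. Both groups grew in DMEM with fetal bovine serum and an antibiotic-antimycotic, and the libraries were made from poly(A)-captured mRNA with a stranded kit.

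Lactate dehydrogenase is a tetramer of A and B subunits that interconverts pyruvate and lactate, and it regenerates the NAD+ that glycolysis needs. The mitochondrial pyruvate carrier, a heterodimer of MPC1 and MPC2, brings pyruvate across the inner membrane. There the pyruvate dehydrogenase complex turns it into acetyl-CoA, or pyruvate carboxylase turns it into oxaloacetate, a step that liver uses for gluconeogenesis. The pyruvate dehydrogenase kinases phosphorylate PDHA1 and switch the complex off, and phosphatases undo this. LDHA and PDK1 are textbook targets of the hypoxia-inducible factor HIF.

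Levels are in CPM (reads scaled by the library's total), computed from the deposited log2 values. Recovered reads per library numbered 14038447 to 17095417, and 3 reads, the floor for a gene at 0, correspond to 0.176 to 0.214 CPM. Each log2 fold change is knockdown minus control of log2(CPM + 1), where the added 1 shrinks changes of weakly expressed genes. Errors of means are SD with n = 3 libraries. Testing was limited to the 12865 genes that averaged 1 CPM or more; 9 of the 10 genes passed this filter and LDHB did not. In bulk RNA, fewer expressing cells and less RNA per cell cannot be told apart.

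SETD5, the siRNA target, was at 136, 140 and 138 CPM in knockdown libraries 1 to 3, against 212, 210 and 202 CPM in control libraries 1 to 3. All knockdown libraries lay below all control libraries, and the mean was 0.664 times the control (adjusted p = 1.15e-17). All 9 hepatocyte markers chosen to check the cell type were in the table, with summed levels of 40927 to 41295 CPM in knockdown and 43753 to 44688 CPM in control libraries. AFP, alpha-fetoprotein, made up the largest share of that sum, at 20268 CPM after knockdown and 21336 CPM in the control. Of the 9 markers 6 fell and 2 rose, where 26.5% of all tested genes were called lower and 25.7% higher. TTR fell to 0.619 times and APOB to 0.682 times the control, falls about as large as that of LDHA described below. ALB and FGB rose to 1.07 and 1.18 times. Of 11 markers of blood, endothelial, mesenchymal and biliary cells, CD3E, VWF, ACTA2, DES and KRT7 were not analysed here. The 6 others summed to 341 to 350 CPM in knockdown and 195 to 202 CPM in control libraries. Most of that was COL1A2, a collagen chain, at 282 ± 6.06 CPM after knockdown and 135 ± 2.41 CPM in the control. PDGFRB, another mesenchymal marker, went the other way, at 18.2 ± 0.72 CPM after knockdown and 25.2 ± 2.43 CPM in the control (adjusted p = 1.42e-06), and EPCAM, an epithelial and biliary marker, rose to 34.4 ± 0.873 CPM after knockdown, against 30.0 ± 0.241 CPM in the control (adjusted p = 0.00276). PTPRC and PECAM1, which define leukocytes and endothelium, averaged at most 1.59 CPM in either group. CD68, another blood-cell marker, was at 7.92 ± 0.322 CPM after knockdown and 6.83 ± 1.00 CPM in the control. Its groups did not overlap, but it did not pass the limma test (adjusted p = 0.111). The part of these markers in the results below was not tested.

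Of the 9 tested genes, 8 fell after SETD5 knockdown and 1 rose, where 26.5% of all tested genes were called lower and 25.7% higher, 52.1% in all. The median log2 fold change of the 9 was -0.31, and 12.1% of all tested genes stood at or below that value; the median of all tested genes was 0.00. Knockdown libraries lay below control libraries without overlap for the 8 genes that fell, as they did for 28.8% of all tested genes. LDHB, which was not tested, showed the same separation. Of the tested genes, PDK1 fell most and LDHA second. PC was the gene that rose, by a small amount and with groups that overlapped.

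**Figure D1:**
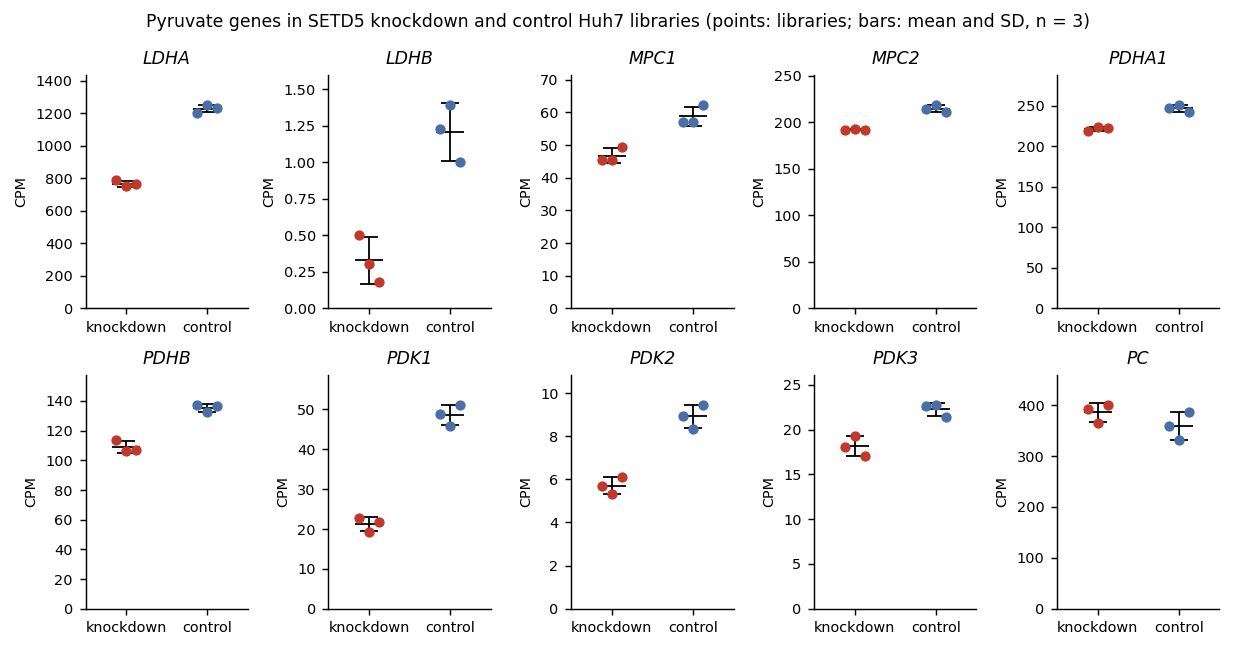
Level of each of the 10 genes in CPM (vertical axis, from 0) in the 3 knockdown libraries (red) and the 3 control libraries (blue), with mean and SD as bars. The red points lie below the blue ones in every panel except PC, where 365 to 400 CPM after knockdown overlaps 331 to 387 CPM in the control.

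The sequences upstream of 3 of these genes are shown because LDHA and PDK1 fell most of the tested genes and PC did not fall. For each gene, the window printed is the one that holds the core of the HIF motif. LDHA, PDK1 and PC also have windows at other starts, and those held no match. The windows run from 250 bases before to 50 bases after a RefSeq transcription start on GRCh38.p14, 5′ to 3′ on the gene's strand, and all 10 genes matched the table of such windows by symbol. Capitals mark ACGTG on either strand; a run of CACGTG reads as ACGTG on both strands and is also the E-box to which MYC and its relatives bind.

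LDHA, chr11:18394313-18394612, plus strand: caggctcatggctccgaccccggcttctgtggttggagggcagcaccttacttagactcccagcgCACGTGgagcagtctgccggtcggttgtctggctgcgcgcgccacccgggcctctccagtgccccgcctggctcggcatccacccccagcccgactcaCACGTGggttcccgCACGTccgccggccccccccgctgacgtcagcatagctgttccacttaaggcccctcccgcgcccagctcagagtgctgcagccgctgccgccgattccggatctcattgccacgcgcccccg

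PDK1, chr2:172555840-172556139, plus strand: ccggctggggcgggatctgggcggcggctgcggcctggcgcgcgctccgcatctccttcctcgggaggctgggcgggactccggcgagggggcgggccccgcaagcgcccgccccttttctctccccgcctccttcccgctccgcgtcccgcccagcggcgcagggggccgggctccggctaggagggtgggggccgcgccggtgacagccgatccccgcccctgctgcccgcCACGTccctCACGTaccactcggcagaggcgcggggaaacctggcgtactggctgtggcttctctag

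PC, chr11:66958334-66958633, minus strand: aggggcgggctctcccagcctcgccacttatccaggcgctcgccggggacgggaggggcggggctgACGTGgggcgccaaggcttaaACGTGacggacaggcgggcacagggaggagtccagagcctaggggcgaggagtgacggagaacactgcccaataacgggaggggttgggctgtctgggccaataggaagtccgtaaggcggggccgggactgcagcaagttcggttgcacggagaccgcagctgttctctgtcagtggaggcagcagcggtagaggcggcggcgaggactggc

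The 10 genes have 18 such windows, since some have several starts, and 6 of the 18 (33.3%) held ACGTG on at least 1 strand. The share was 25.4% among windows of all tested genes and 21.4% among all 35116 RefSeq windows. The windows with a match belonged to LDHA, PDHB, PDK1, PDK2, PDK3 and PC, which include genes that fell and the gene that rose. MPC1, MPC2 and PDHA1 held no match and also fell, and LDHB, which was not tested for change, held none. The part of the motif in these changes was not tested. A match is a description of these letters and not evidence that a factor binds there.

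LDHA encodes the subunit that predominates in muscle and in most tumours. Its levels were 789, 751 and 765 CPM in knockdown libraries 1 to 3, against 1205, 1252 and 1233 CPM in control libraries 1 to 3. The groups were far apart compared with their spread, which was under 3% of the mean in both. The mean was 768 ± 19.2 CPM after knockdown and 1230.2 ± 23.2 CPM in the control, 0.624 times the control. On the log2 scale LDHA fell by 0.68 with a standard error of 0.026 (95% confidence interval -0.73 to -0.63, adjusted p = 4.04e-22), and it ranked 322nd from the lowest of the tested genes.

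LDHB encodes the subunit that predominates in heart, and it was barely detected. It had 8, 5 and 3 reads in knockdown libraries 1 to 3, against 21, 20 and 14 reads in control libraries 1 to 3. These correspond to 0.50, 0.307 and 0.179 CPM after knockdown and 1.23, 1.39 and 1.00 CPM in the control. Every knockdown value was below every control value, and the lowest equals the 3-read floor. Summed over libraries, 16 reads after knockdown and 55 in the control gave a depth-adjusted ratio of 0.271, with an exact 95% interval of 0.145 to 0.48 that covers counting error only. When no filter on low values was applied, so that all 14200 genes entered the fit, LDHB fell by 0.74 on the log2 scale (adjusted p = 8.23e-05). Another annotated gene, AC010197.2, shares 997 exonic bases with LDHB on the same strand in GENCODE 29, so the assignment of these reads is uncertain.

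Because a longer message gives more reads, the 2 subunits were compared per kilobase of one GENCODE 29 transcript per gene. LDHA stood at 318 ± 7.95 CPM per kilobase after knockdown and 509 ± 9.61 CPM per kilobase in the control, and LDHB at 0.214 ± 0.105 and 0.785 ± 0.128 CPM per kilobase. Of the reads assigned to LDHA or LDHB, LDHA held 99.96% after knockdown and 99.9% in the control, within the uncertainty of the LDHB assignment. LDHC, LDHD, LDHAL6A and LDHAL6B were not analysed here.

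The monocarboxylate transporters that move lactate and pyruvate across the plasma membrane did not go one way. SLC16A3, the transporter MCT4 of glycolytic cells, was at 41.4, 40.3 and 41.4 CPM in knockdown libraries 1 to 3, against 69.3, 65.6 and 73.0 CPM in control libraries 1 to 3. It fell to 0.592 times the control without overlap (log2 fold change -0.74, adjusted p = 5.14e-16). SLC16A1, the widely expressed transporter MCT1, rose to 203 ± 2.03 CPM after knockdown, against 167 ± 6.17 CPM in the control (adjusted p = 2.06e-09). SLC16A7, the transporter MCT2, fell to 0.848 times the control. BSG, the chaperone of MCT1 and MCT4, was at 518 ± 5.12 CPM after knockdown and 557 ± 14.2 CPM in the control (adjusted p = 0.00101), and no longer passed once limma's variance trend was dropped (adjusted p = 0.0547). EMB, another chaperone of these transporters, was at 2.16 and 2.15 CPM without passing. Of the 5 tested genes of the list, 3 fell and 1 rose, where 26.5% of all tested genes were called lower and 25.7% higher.

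Both subunits of the mitochondrial pyruvate carrier fell. MPC1 was at 45.6, 45.4 and 49.4 CPM in knockdown libraries 1 to 3, against 57.1, 57.1 and 62.2 CPM in control libraries 1 to 3. Replicate 3 was the highest in each group, and the groups did not overlap. MPC1 fell to 0.795 times the control (log2 fold change -0.32 with a standard error of 0.048, adjusted p = 4.78e-07). MPC2 was at 192, 193 and 192 CPM in knockdown libraries, against 215, 219 and 211 CPM in control libraries. Its knockdown libraries had a spread of 0.337% of the mean, below the 1.78% that counting alone gives, so this closeness is not a trait of the gene. MPC2 fell to 0.895 times the control (log2 fold change -0.16 with a standard error of 0.03, adjusted p = 2.86e-05). Exons of MPC2 overlap those of DCAF6 on the other strand by 575 bases in GENCODE 29, and whether the counting used strand is not given in the sources used here.

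PDHA1 and PDHB encode the alpha and beta subunits of the decarboxylating enzyme of the pyruvate dehydrogenase complex, and PDHA1 carries the sites that the kinases phosphorylate. PDHA1 was at 219, 223 and 223 CPM in knockdown libraries 1 to 3, against 247, 251 and 242 CPM in control libraries 1 to 3. The groups did not overlap, and PDHA1 fell to 0.899 times the control (log2 fold change -0.15 with a standard error of 0.029, adjusted p = 3.87e-05). PDHB was at 114, 106 and 107 CPM after knockdown, against 137, 132 and 136 CPM in the control. It fell to 0.805 times the control, again without overlap (log2 fold change -0.31 with a standard error of 0.035, adjusted p = 2.38e-09). Exons of PDHA1 and MAP3K15, on opposite strands, share 956 bases, and exons of PDHB and the antisense gene AC135507.1 share 360. LDHA, LDHB and PDHA1 also have 6, 3 and 1 pseudogenes named after them in GENCODE 29, none of which was analysed here, so the handling of reads shared with these copies is uncertain.

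The remaining subunits of the complex were mixed. PDHX, which anchors dihydrolipoamide dehydrogenase to the core, fell to 44.4 ± 0.467 CPM after knockdown, against 58.4 ± 2.62 CPM in the control (log2 fold change -0.39, adjusted p = 6.53e-09). DLAT, the acetyltransferase of the core, was at 288 ± 5.85 CPM after knockdown and 299 ± 3.92 CPM in the control, without passing (adjusted p = 0.104). DLD, the dihydrolipoamide dehydrogenase that other 2-oxoacid dehydrogenases share, was at 131 ± 2.65 and 129 ± 1.53 CPM (adjusted p = 0.589). In the list of subunits 3 of 5 tested genes thus fell, against 26.5% of all tested genes.

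The 3 listed kinases all fell, by different amounts. PDK1, the kinase most strongly linked to hypoxia, was at 22.8, 19.2 and 21.8 CPM in knockdown libraries 1 to 3, against 48.9, 45.9 and 51.0 CPM in control libraries 1 to 3. The highest knockdown value was under the lowest control value by a wide margin. The mean was 21.3 ± 1.84 CPM after knockdown and 48.6 ± 2.57 CPM in the control, 0.438 times the control. With a log2 fold change of -1.16 (standard error 0.06, 95% confidence interval -1.28 to -1.04, adjusted p = 3.1e-18), PDK1 ranked 44th from the lowest of the 12865 tested genes. Its exons share 445 bases with the antisense gene AC078883.1.

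PDK2, a kinase expressed in most tissues, rested on few reads, 91, 87 and 102 in knockdown libraries and 153, 120 and 132 in control libraries. These are 5.69, 5.34 and 6.10 CPM after knockdown, against 8.96, 8.36 and 9.43 CPM in the control. The groups did not overlap in CPM, and the spread of 6.67% and 6.04% of the mean was below the 10.4% and 8.61% that counting alone gives at these depths. PDK2 fell to 0.64 times the control (log2 fold change -0.56 with a standard error of 0.098, adjusted p = 8.96e-06). Exons of PDK2 overlap those of SAMD14 on the other strand by 2113 bases.

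PDK3 was at 18.0, 19.3 and 17.1 CPM in knockdown libraries 1 to 3, against 22.7, 22.7 and 21.4 CPM in control libraries 1 to 3. It fell to 0.815 times the control without overlap (log2 fold change -0.28 with a standard error of 0.068, adjusted p = 0.000641). PDK4, the kinase that fasting and PPAR ligands induce, is not one of the 10 genes but completes the family. It rested on few reads, 45, 44 and 53 after knockdown and 35, 25 and 20 in the control. PDK4 went the other way, at 2.89 ± 0.245 CPM after knockdown and 1.74 ± 0.31 CPM in the control, 1.66 times the control (log2 fold change 0.51 with a standard error of 0.14, adjusted p = 0.00176).

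The 4 kinase genes together held 48.0 ± 1.35 CPM after knockdown and 81.5 ± 2.47 CPM in the control. PDK1 made up 44.2 ± 2.64% of their reads after knockdown and 59.6 ± 1.49% in the control. Per kilobase of transcript PDK3 was at 9.45 ± 0.583 after knockdown and 11.6 ± 0.375 in the control, in CPM per kilobase, and PDK2 at 1.66 ± 0.111 and 2.59 ± 0.157. The place of PDK1 among the kinases per length is not settled, because its annotated coding transcripts run from 1515 to 14193 bases. With the longest, PDK1 was at 1.60, 1.35 and 1.54 CPM per kilobase in knockdown libraries, against 3.44, 3.23 and 3.59 in control libraries. With the shortest, its mean was 14.0 CPM per kilobase after knockdown and 32.1 in the control.

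The phosphatases that reverse the kinases did not pass the limma test in either direction. PDP2, a catalytic subunit, was at 32.7 ± 1.94 CPM after knockdown and 30.0 ± 0.658 CPM in the control (adjusted p = 0.0799, and 0.0258 without knockdown replicate 3). PDPR, the regulatory subunit, was at 67.1 ± 3.35 and 69.3 ± 2.54 CPM (adjusted p = 0.376). At an unadjusted p under 0.05, 1 of the 3 tested phosphatase genes was higher and 0 were lower, and voom called 0.

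PC encodes pyruvate carboxylase, the mitochondrial enzyme that makes oxaloacetate from pyruvate. It was at 393, 365 and 400 CPM in knockdown libraries 1 to 3, against 359, 331 and 387 CPM in control libraries 1 to 3. The ranges overlapped, and the second library was the lowest of each group. The mean was 386 ± 18.6 CPM after knockdown and 359 ± 28.3 CPM in the control, 1.07 times the control (log2 fold change 0.10 with a standard error of 0.037, adjusted p = 0.0185). By exact permutation of the 6 values, two-sided, p was 0.2. The limma call was lost when the variance trend was dropped (adjusted p = 0.251) and without knockdown replicate 1 (0.101), knockdown replicate 3 (0.0887) or control replicate 2 (0.268). Spread between PC libraries was 4.82% and 7.88% of the mean in knockdown and control, against 1.26% and 1.36% from counting. PC and LRFN4 overlap by 621 exonic bases on opposite strands.

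**Figure D2:**
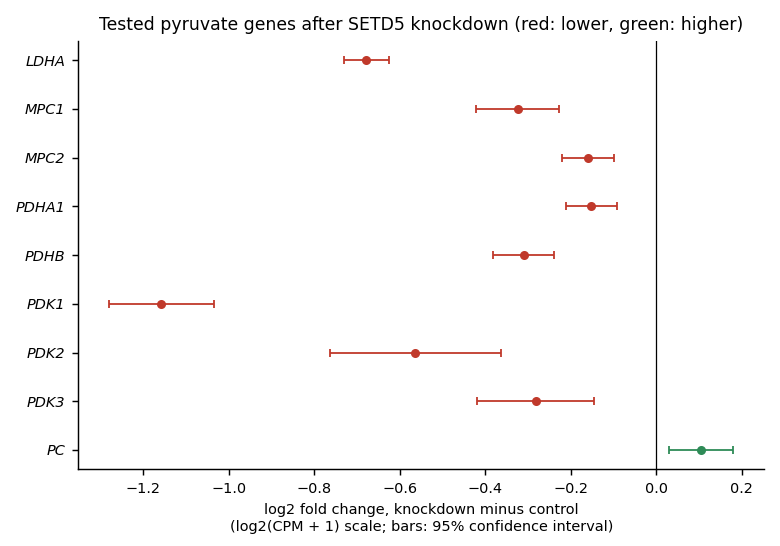
Log2 fold change (horizontal axis, knockdown minus control on the log2(CPM + 1) scale) of the 9 tested genes with 95% confidence intervals from limma. PDK1 at -1.16 and LDHA at -0.68 lie farthest from 0, MPC2 at -0.16 and PDHA1 at -0.15 fell least, and PC at 0.10 is the only one to the right of 0.

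Of the other enzymes that make or use pyruvate and its neighbours, the carboxylation, malic enzyme and transaminase list had 6 tested genes. Of these 4 fell and 2 rose, PC and GPT2, where 26.5% of all tested genes were called lower and 25.7% higher. Without the variance trend 1 gene of the list was called higher. The alanine transaminases, which interconvert pyruvate and alanine, went opposite ways. GPT, the cytosolic form, fell to 3.65 ± 0.529 CPM after knockdown, against 7.65 ± 0.713 CPM in the control (log2 fold change -0.90, adjusted p = 1.8e-08). GPT2, the mitochondrial form, rose to 110 ± 4.54 CPM after knockdown, against 74.3 ± 5.4 CPM in the control (log2 fold change 0.56, adjusted p = 2.02e-13). The cytosolic malic enzyme ME1, which makes pyruvate from malate, fell to 0.671 times the control, and PCK2, the mitochondrial PEP carboxykinase, to 0.862 times. PCK1, the cytosolic form, was not analysed here. Both pyruvate kinases fell further than any of the 9 tested genes, PKM with a log2 fold change of -1.55 and PKLR with -1.53.

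How unequally the 10 genes changed was measured as the log2 ratio of 2 genes within a library, for 8 pairs. Such a ratio does not depend on library scaling, and gene length cancels in the difference between groups. None of the 8 pairs overlapped between groups, so each exact two-sided permutation test gave p = 0.1, the smallest that 3 against 3 libraries allow, and the Benjamini-Hochberg adjusted value over the 8 pairs was 0.1 for each. No pair can therefore pass 0.05 in this design. Several pairs share a gene, such as PDHA1, so they are not independent. How often ratios of other gene pairs overlap between groups was not computed, and the count of 8 is a description only. The CPM ratio of LDHA to PDHA1 was 3.60, 3.36 and 3.42 in knockdown libraries 1 to 3, against 4.88, 4.99 and 5.09 in control libraries 1 to 3. The mean log2 ratio was 1.79 ± 0.051 after knockdown and 2.32 ± 0.031 in the control, a difference of -0.53. In each library, then, the message for the lactate enzyme was lower relative to that of the pyruvate dehydrogenase subunit after knockdown.

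The kinase PDK1 was lower relative to its substrate PDHA1 as well, with log2 ratios of -3.39 ± 0.139 after knockdown and -2.35 ± 0.102 in the control, a difference of -1.04. Within the kinases, PDK1 over PDK2 in CPM was 4.0, 3.60 and 3.58 in knockdown libraries 1 to 3, against 5.46, 5.49 and 5.41 in control libraries 1 to 3. The difference was -0.55 on the log2 scale, where the control libraries had an SD of 0.011. Counting alone gives a spread of 3.69% of the mean for PDK1 and 8.61% for PDK2 in the control. That SD is narrower than such counting gives, so it does not measure the error of the ratio. PDK3 over PDK2 moved the opposite way, by 0.35, and PC over PDHA1 by 0.26. Between the carrier subunits and between the pyruvate dehydrogenase subunits the ratios moved less: MPC1 over MPC2 by -0.17 and PDHA1 over PDHB by 0.16. LDHA over LDHB differed by 1.31, a value that rests on the 3 to 21 reads of LDHB.

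**Figure D3:**
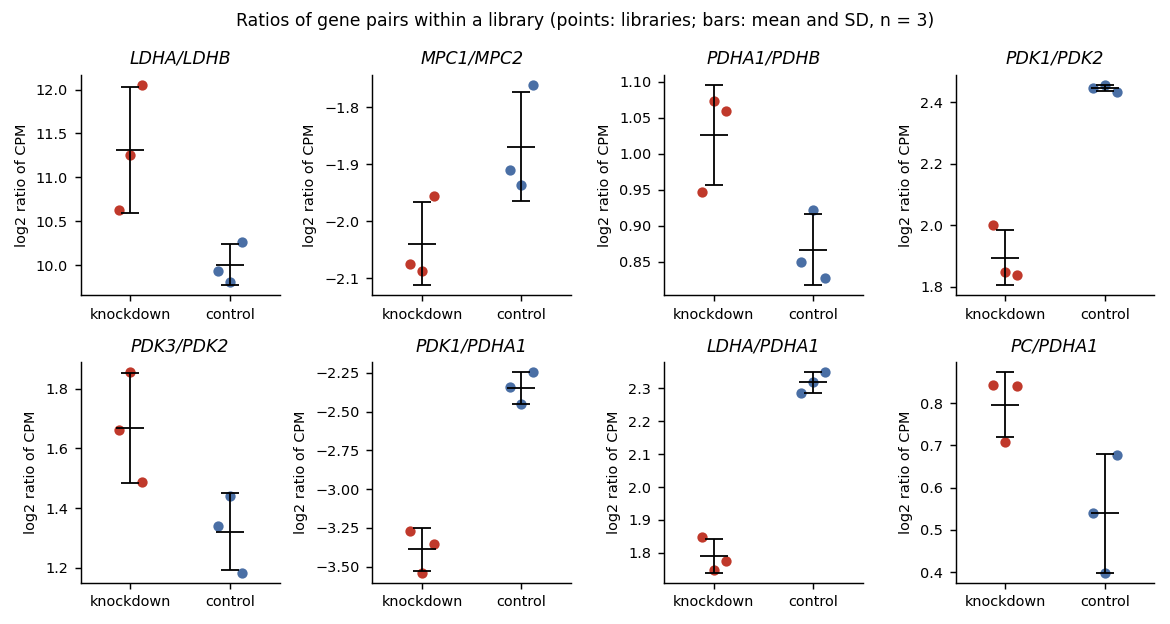
Log2 ratio of CPM (vertical axis, a separate range in each panel) for 8 gene pairs in the 3 knockdown libraries (red) and the 3 control libraries (blue), with mean and SD as bars. The groups do not overlap in any panel; LDHA/PDHA1, PDK1/PDK2 and PDK1/PDHA1 are lower after knockdown, and PC/PDHA1 and PDK3/PDK2 are higher.

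The wider pathway was described with 13 lists of 86 genes in all, of which 73 were tested; 40 of these fell and 8 rose, with a median log2 fold change of -0.14, beside 26.5% called lower, 25.7% called higher and a median of 0.00 over all tested genes. The 73 include the 9 tested genes described above, of which 8 fell and 1 rose, so those are counted again here. They also include 11 regulators and the 2 pyruvate kinases. The counts of single lists are small and are given as descriptions beside the same shares. Citric acid cycle genes fell in 10 of 14 tested members, with a median of -0.19. Of these genes voom called 9 lower, and limma without the variance trend called 8 lower. IDH3G, a subunit of isocitrate dehydrogenase, fell to 17.6 ± 0.812 CPM after knockdown, against 34.2 ± 0.866 CPM in the control (log2 fold change -0.92, adjusted p = 3.48e-15). CS, the citrate synthase that receives acetyl-CoA, was at 181, 175 and 178 CPM in knockdown libraries, against 242, 241 and 240.4 CPM in control libraries, and fell to 0.74 times the control (adjusted p = 8.24e-15). SDHA and FH fell to 0.705 and 0.723 times the control, whereas IDH3B (137 and 137 CPM) and SDHD (89.2 and 85.7 CPM) did not pass.

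The sister 2-oxoacid dehydrogenases, built like the pyruvate complex, fell in 3 of 8 tested members, a count near the 26.5% of all tested genes called lower. DLST, the core of the oxoglutarate complex, fell to 0.725 times the control and BCKDHB, of the branched-chain complex, to 0.713 times. BCKDHA fell to 0.883 times, a call that ended without control replicate 3 (adjusted p = 0.0943). OGDH was at 52.8 and 50.2 CPM and DBT at 47.2 and 49.5 CPM in knockdown and control, without passing. For citrate export and cytosolic acetyl-CoA, the carrier SLC25A1 fell to 0.852 times and the acetyl-CoA synthetase ACSS2 to 0.747 times the control, while ATP citrate lyase ACLY was at 521 and 514 CPM without passing.

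Genes that supply lipoate, thiamine and biotin mostly did not pass: of 9 tested, 1 fell and 1 rose. Of all tested genes 26.5% were called lower and 25.7% higher. SLC19A2, a thiamine transporter, rose to 94.7 ± 2.45 CPM after knockdown, against 62.1 ± 1.54 CPM in the control (log2 fold change 0.60, adjusted p = 2.52e-15). BTD, the biotinidase that recycles biotin, was at 23.5 ± 2.09 and 26.6 ± 1.51 CPM (adjusted p = 0.0256), and that call was lost when the variance trend was dropped (0.0898) and without knockdown replicate 1 (0.102), knockdown replicate 3 (0.136) or control replicate 1 (0.155). SLC19A3, another thiamine transporter, and SLC5A6, which carries biotin, stood at 35.3 and 90.7 CPM after knockdown and 33.2 and 87.1 CPM in the control, without passing.

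Among 11 tested regulators known to act on LDHA or on kinase genes, 6 fell and 3 rose. Of all tested genes 26.5% were called lower and 25.7% higher, and the number of regulators that rose is near the latter share. HIF1A, the oxygen-regulated subunit of HIF, fell to 325 ± 4.92 CPM after knockdown, against 415 ± 0.429 CPM in the control (log2 fold change -0.35, adjusted p = 1.41e-13). Its partner ARNT was at 42.8 and 45.5 CPM without passing. MYC, which activates LDHA, rose to 112 ± 1.35 CPM after knockdown, against 89.3 ± 3.01 CPM in the control (adjusted p = 2.12e-09). NR3C1, the glucocorticoid receptor, fell to 0.636 times and PPARD to 0.678 times the control, and FOXO3 was at 46.8 and 47.1 CPM without passing.

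**Figure D4:**
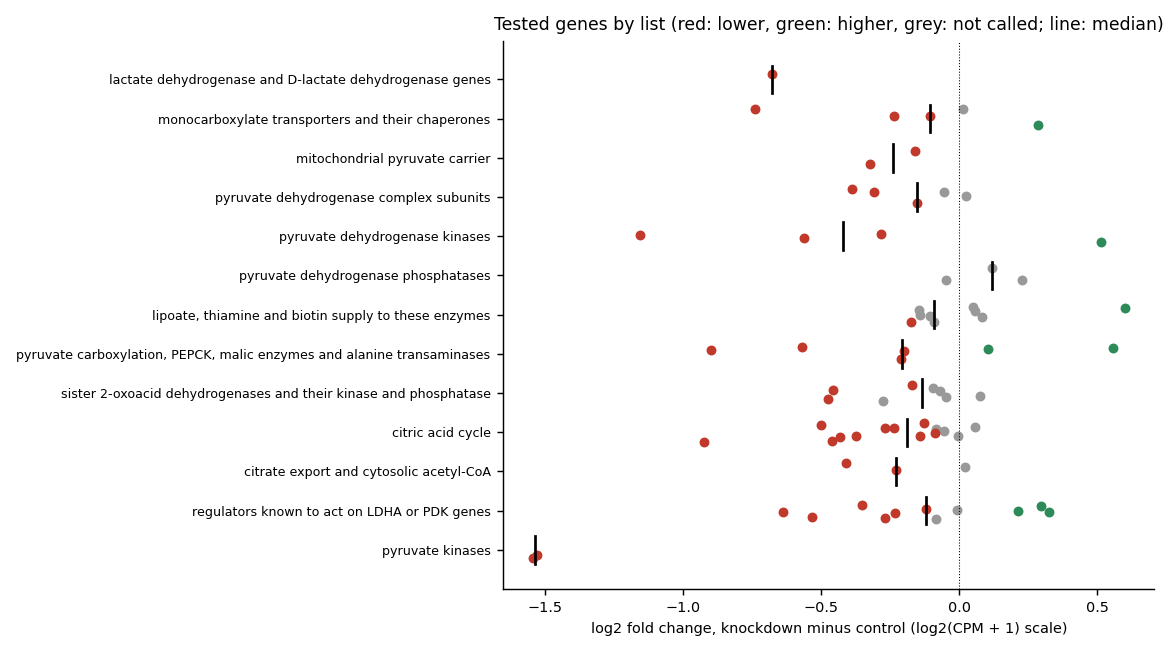
Log2 fold change (horizontal axis, knockdown minus control on the log2(CPM + 1) scale) of the tested genes of the 13 lists, 1 point a gene, with the list median as a black line. The kinase list spans -1.16 (PDK1) to 0.51 (PDK4), the phosphatase points are all grey, and the citric acid cycle points lie mostly to the left of 0.

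Messages of 3 of the 10 genes share a 6-base word in the 3′ UTR, GCACCT, which an earlier scan of these same fold changes had picked out in genes that fell, so that its link to lower levels is not independent of these data. The matches in PDHB, PDK1 and PDK2 are shown with 12 bases on either side, read from the GENCODE 29 transcripts, with the word in capitals.

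PDHB, base 54 of the 3′ UTR: cttgctggcactGCACCTggatttgtactg

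PDK1, base 178: aaggatgaaattGCACCTattttacactta

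PDK1, base 4514: agtatgtagtagGCACCTgtaattgtgaag

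PDK2, base 17: cgccgtgcatctGCACCTgagaggacggac

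PDK2, base 1130: ccggatggcccaGCACCTggtgacagacct

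Of all tested genes with a 3′ UTR in the transcripts used, 28.7% hold the word, a share near the 3 of 10 genes here. Among the tested genes with the word, 34.5% were called lower, against 24.3% of those without it. Their median log2 fold changes were -0.035 with the word and 0.014 without it. The length of the 3′ UTR, on which the odds of a match depend, was not taken into account. The 3 genes with the word had log2 fold changes of -0.31, -1.16 and -0.56. The other genes, LDHA, LDHB, MPC1, MPC2, PDHA1, PDK3 and PC, have no match in the transcript used, and among them LDHA at -0.68, MPC1 at -0.32, PDK3 at -0.28, MPC2 at -0.16 and PDHA1 at -0.15 also fell, while LDHB was not tested and PC rose. The PDK1 transcript used has a 3′ UTR of 12700 bases, and the coding transcript of 1515 bases is too short to hold the second match. The siRNA sequence is not given in the sources used here, and the part of these words in the falls was not tested.

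For PDK1, the gene of the 9 tested with the largest absolute log2 fold change, the 5 genes with the most similar profile over the 6 libraries were taken from 7695 others with a mean of at least 20 CPM. Similarity was the root mean square difference of log2 values, each gene centred on its own mean. These were PLG (0.021), ARSB (0.041), BNIP3 (0.048), MFSD10 (0.063) and CCDC69 (0.064), which had log2 fold changes of -1.18, -1.22, -1.19, -1.08 and -1.11. With 2 groups so far apart, the measure mainly picks genes with a like fold change.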

How the data were processed

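Poly(A)-captured mRNA of Huh7 cells was sequenced, per the labels' protocols. The submitters' processing notes name STAR 2.5.1, R 3.3.0 and the builds hg19 and mm10 without a role. No source names the counting program, its strand setting or the gene filter. The authors deposited a table of log2 values, log2(CPM + 1) as the values show: undone, they are whole multiples of 1 read's worth for 100% of values, within 0.01 read. CPM and reads were recovered this way, and counting precision covers counting error only.

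Groups follow the titles. Groups were compared on the deposited values with limma 3.58.1 (R 4.3.3; lmFit, then eBayes with trend = TRUE; two-sided), group as the only term, Benjamini-Hochberg adjustment over all 12865 tested genes, threshold 0.05. It was run on simulated data in which every gene had the same small added spread between libraries. That run does not cover genes that vary more, such as PC. Libraries of a group differed by a chi-square of 1.26 to 2.15 per gene, where sampling alone gives about 1. The 10 genes, the lists and the tests were chosen with earlier results of these data known. Named are all 10 genes, up to 4 called and 2 uncalled genes of each list, and the 5 profiles nearest to PDK1. For lengths and 3′ UTRs the APPRIS principal, then longest, coding transcript of GENCODE 29 was used. Alternatives changed the pseudocount, filter, scaling, variance model, test, replicate block and libraries.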

Additional observations from a re-analysis of the deposited data

How the results depend on the processing

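The 8 genes that fell stayed called and lower under all 15 alternatives. Their log2 fold changes ranged from -1.21 to -1.09 for PDK1, -0.70 to -0.66 for LDHA, -0.63 to -0.52 for PDK2 and -0.36 to -0.28 for MPC1. The largest adjusted p of the 8 was 0.0129, for PDHA1 without the mean-variance trend. In that limma fit the adjusted p was 5.77e-05 for LDHA, 7.91e-05 for PDK1 and 9.5e-05 for SETD5, so the very small values above depend on the trend. PC is the exception: without the trend 0 of the 10 genes were called higher by limma (0 also at an unadjusted p under 0.05; voom called 1), and with a library left out the count was 0 to 1. PC ranged from 0.05 to 0.16, with adjusted p of 0.000487 to 0.268. No filter on low values brought in LDHB. Over all genes 5868 to 6898 were called. Whether the numbers shared by the groups' labels pair the libraries was not settled by correlating deviations from the group means. Libraries of the same number correlated at -0.011, 0.054 and 0.042, and those of different numbers at -0.06 to 0.021. With the replicate number as a block in limma, the adjusted p of PC was 0.000487. With the replicate block 6898 genes were called, 3399 higher and 3499 lower, against 6706, and 9 of the 10 genes as before; SETD5 was at -0.59, and no direction turned. The 8 gene ratios kept their direction with a pseudocount of 0.1, with the block and with each library left out; LDHA/LDHB ranged from 0.93 to 1.65. Depth limits LDHB, PDK2 and PDK4.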
